A study of Drosophila melanogaster with 2 samples.

Results

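CG2875 sites were followed across 10 Drosophila genes that encode parts of the sarcomere, the contractile unit of striated muscle. The genes were sls, bt, Mhc, Mlc2, Tm1, Tm2, up, wupA, Act57B and Act87E, 10 of the 13945 protein-coding genes annotated on chromosomes X, 2L, 2R, 3L, 3R and 4. They were chosen by name for what they encode, with earlier results of these data known. Every peak with its summit inside 1 of these genes or within 5 kb of it was taken. Sites came as ChIP-seq peak lists (chromatin immunoprecipitation followed by sequencing) from 1 group of 2 biological replicates. Both replicates were whole embryos of both sexes, 0 to 14 h old, from a transgenic line that stably expresses CG2875 with green fluorescent protein (GFP) fused to its C-terminus, and an antibody against GFP was used for the precipitation. There was no second condition, genotype or time. The labels state neither what drives the transgene nor whether the endogenous CG2875 gene was intact. Muscle cells are a part of such embryos and the collection joins many stages, so a site cannot be assigned to muscle cells or to an age.

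The sarcomere is built of thick filaments of myosin that slide along thin filaments of actin, and the thin filaments are anchored at the Z-disc. Tropomyosin lies along the actin filament and, with the troponins, lets calcium switch contraction on and off. Very large proteins of the titin kind link the thick filaments to the Z-disc. In Drosophila most of these genes are switched on when myoblasts fuse into muscle fibres in the embryo, largely through the transcription factor Mef2, and many are transcribed from more than 1 start site and spliced into isoforms for different muscles.

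A start site is written TSS here, and a summit within 500 bp of a TSS is called a promoter summit. The main list was the authors' list filtered by its irreproducible discovery rate (IDR), which scores how well the ranks of replicates match. It held 4278 peaks, which are exactly the 4278 strongest of the 30000 peaks of the pooled list, called on the joined replicates. Each replicate also had a relaxed list of 30000 peaks. These relaxed lists hold background by design, so a weak peak in them is a position and a rank and not a called site. The signal of a peak is the authors' own measure of enrichment, and it was compared within a list only. Between lists the ranks were set side by side, where rank 1 is the strongest peak. In the IDR list signals ran from 119 to 2332 with a median of 188. Read depth is unknown, since peak lists carry no read totals.

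CG2875 sites of the IDR list lay at the promoters of 3 of the 10 sarcomere genes, namely sls, Tm1 and Act87E. This was 30.0% of the genes, with an exact binomial 95% interval of 6.67 to 65.2%, and 14.0% of all protein-coding genes had an IDR promoter summit. The interval holds the value for all genes, so at this number of genes no difference can be read. In the gene or within 5 kb of it 4 of the 10 genes had an IDR summit (interval 12.2 to 73.8%), the fourth being Mlc2, against 40.9% of all protein-coding genes. Inside the gene itself only Tm1 had one, 1 of 10 genes against 11.4% of all protein-coding genes. The windows of the 10 genes held 7 IDR summits. They were 4 promoter summits of the genes themselves, 1 summit just beyond the end of Act87E, and 2 summits whose nearest TSS belonged to a neighbour.

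The DNA under the 4 promoter summits is shown because these are the sites on which the counts rest. Each window spans 100 bp on either side of the summit and is read in the direction of the gene, from the Release 6 genome (dm6). The second Tm1 window stops at 186 bp, just before the TSS. Capitals mark matches, on either strand, to the motifs described after the sequences. The sls window is chr3L:2115751-2115951, minus strand. The Tm1 windows are chr3R:15280975-15281175 and chr3R:15281185-15281370, plus strand. The Act87E window is chr3R:13425576-13425776, plus strand.
sls, summit 240 bp before its TSS: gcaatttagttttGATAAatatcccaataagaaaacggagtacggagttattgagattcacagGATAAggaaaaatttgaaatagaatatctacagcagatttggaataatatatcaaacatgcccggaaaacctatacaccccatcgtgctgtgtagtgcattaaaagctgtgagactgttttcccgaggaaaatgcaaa
Tm1, summit 296 bp before an internal TSS: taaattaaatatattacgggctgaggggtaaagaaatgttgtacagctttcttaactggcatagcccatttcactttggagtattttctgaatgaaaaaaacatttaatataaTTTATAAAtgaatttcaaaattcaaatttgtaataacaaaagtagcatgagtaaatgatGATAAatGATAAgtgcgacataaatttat
Tm1, summit 86 bp before the same TSS: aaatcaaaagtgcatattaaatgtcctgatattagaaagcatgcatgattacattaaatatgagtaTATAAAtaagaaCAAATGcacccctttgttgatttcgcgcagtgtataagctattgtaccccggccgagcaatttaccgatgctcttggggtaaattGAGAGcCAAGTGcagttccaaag
Act87E, summit 307 bp before its first TSS: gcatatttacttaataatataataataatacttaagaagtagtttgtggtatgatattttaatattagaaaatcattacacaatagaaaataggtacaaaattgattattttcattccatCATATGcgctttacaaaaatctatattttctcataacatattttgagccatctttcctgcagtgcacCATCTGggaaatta

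The sls window held GATAA, the core bound by GATA factors, at 2 places. The Tm1 window farther from the TSS also held GATAA at 2 places, beside a stretch that reads as the TATA box word TATAAA on both strands, where the 2 matches overlap. The nearer Tm1 window held TATAAA once, the GAGA factor word GAGAG once and 2 matches to CANNTG, the E-box of bHLH factors such as Twist and the MyoD homologue Nautilus. The Act87E window held 2 E-boxes, of which 1 was CATATG, the form that Twist is known to bind. Over the 7 IDR summits in the windows of the sarcomere genes, an E-box was found in 4 of 7, against 61.6% of all 4278 IDR windows of that length. GATAA was found in 3 of 7 against 40.5%, TATAAA in 2 of 7 against 34.0%, GAGAG in 2 of 7 against 24.5% and CATATG in 1 of 7 against 8.46%. A loose form of the Mef2 word (CTA and TAG with any 4 bases between) was found in 0 of 7 against 3.39%, and TATCGATA, the DNA replication-related element, in 0 of 7 against 1.92%. CATATG is counted within CANNTG as well. A match to letters is no evidence that a factor is bound. The 7 windows had a median GC content of 31.8% (range 23.4 to 41.8%), against 35.8% for all IDR windows (range 13.9 to 66.2%).

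sls encodes Sallimus, a titin-like protein that links the Z-disc to the thick filament. The gene (FBgn0086906) covers 75931 bp of chromosome 3L, from 2039681 to 2115611 on the minus strand, and its 13 annotated transcripts share 1 TSS. Its promoter peak, chr3L:2115763-2115994, was 232 bp wide and had its summit 240 bp upstream of that TSS. The peak had a signal of 360 and rank 686 in the pooled list. In replicate 1 it had a signal of 180 and rank 592, and in replicate 2 a signal of 178 and rank 832, so it stood among the strongest peaks of each list. The 3 summits lay within 11 bp of each other. The gene body itself held 0 pooled summits, 3 summits of replicate 1 and 2 of replicate 2, the strongest of them at rank 20221, in replicate 1. Of the 36-base words of the sls body 13.9% occur elsewhere in the genome or repeat, and the labels do not state how reads from such sequence were treated. None of the words in the promoter window did.

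bt encodes projectin, the other large titin-like protein of the fly sarcomere. Its gene (FBgn0005666) covers 52075 bp of chromosome 4, from 724400 to 776474 on the plus strand, with 5 transcripts and 3 TSSs. Here no list held a promoter summit, and bt was the only sarcomere gene with none in either replicate. Of all protein-coding genes 44.2% had none in either replicate. The window of bt held 15 summits of replicate 1 (14 of them in the gene), 4 of replicate 2 (1 in the gene) and 6 pooled summits, with pooled signals of 32.4 to 54.7. The strongest pooled one lay 2386 bp upstream of the first TSS and had rank 23193 in replicate 1 and rank 11838 in replicate 2. The nearest IDR summit was 31085 bp outside the gene, at Sox102F, which encodes a SoxD transcription factor, with a signal of 389. Replicate 1 had more summits than replicate 2 over the whole of chromosome 4, with 375 against 139 of 30000 peaks. Per 100 kb the bt window held 24.2 summits of replicate 1 and 6.44 of replicate 2, and the protein-coding genes of chromosome 4 with their flanks held 29.7 of replicate 1 and 10.7 of replicate 2. Whether this difference of the chromosome sets that at bt was not tested.

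The thick filament genes had weak promoter summits. Mhc encodes the only muscle myosin heavy chain of the fly, and its isoforms come from splicing of 1 gene (FBgn0264695, chr2L:16766566-16788766, plus strand, 21 transcripts, 5 TSSs). Its strongest promoter summit lay 49 bp inside the TSS of 14 of these transcripts. That summit had a signal of 58.0 and rank 11863 in the pooled list, 27.8 and rank 12723 in replicate 1, and 34.7 and rank 12391 in replicate 2. Its place in the 3 lists was thus alike and far below the IDR list. The nearest IDR summit was 23371 bp away, at LSm7, which encodes an RNA-processing protein.

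Mlc2 encodes the regulatory light chain of muscle myosin. Its gene (FBgn0002773, chr3R:30171438-30174551, minus strand) has 1 transcript. The strongest summit at its own promoter lay 28 bp inside the TSS and had a signal of 60.4 and rank 11235 in the pooled list. In replicate 1 the strongest promoter summit had rank 14934 and lay 234 bp upstream of the TSS, and in replicate 2 it had rank 12351 and lay 19 bp inside it. The IDR summit in the Mlc2 window was a different site. It lay 536 bp beyond the end of the gene and 305 bp inside the TSS of Rsod, a gene named for its relation to superoxide dismutase, in an Rsod intron. That peak, chr3R:30170690-30171113, had a signal of 219 and rank 1690 in the pooled list, a signal of 112 and rank 1437 in replicate 1 and a signal of 112 and rank 1946 in replicate 2. The IDR summit counted for Mlc2 by distance was therefore a promoter summit of Rsod.

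The 2 tropomyosin genes lie next to each other on chromosome 3R and differed. Tm1 (FBgn0003721, chr3R:15278220-15308779, plus strand) has 18 transcripts from 8 TSSs, and it makes cytoplasmic as well as muscle tropomyosins. Tm2 (FBgn0004117, chr3R:15310193-15315197, plus strand) has 6 transcripts from 5 TSSs. Tm1 had 2 IDR promoter summits and Tm2 had none. Both Tm1 summits lay in an intron, downstream of the first TSS, where 1 transcript starts. They were upstream of a cluster of 3 internal TSSs, at 15281371, 15281532 and 15281550, where 1, 3 and 7 transcripts start.

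The stronger Tm1 promoter peak, chr3R:15280963-15281116, had its summit 296 bp upstream of the first TSS of that cluster, with a pooled signal of 286 and rank 1066. The weaker one, chr3R:15281073-15281496, had its summit 86 bp upstream, with a pooled signal of 161 and rank 2712. In replicate 1 there were 2 summits here too, 264 bp upstream with a signal of 162 and rank 729, and 57 bp upstream with a signal of 78.7 and rank 2476. In replicate 2 there was a single summit, 133 bp upstream, with a signal of 127 and rank 1540. The cluster was thus marked in both replicates, and the split into 2 summits was seen in replicate 1 and in the pooled list but not in replicate 2.

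Other Tm1 start sites ranked lower. The strongest summit near the first TSS of the gene, where 1 transcript starts, had a pooled signal of 43.8 and rank 17944, lay 17 bp from the TSS of MRG15, which encodes a chromodomain protein, and was matched in replicate 2 but not in replicate 1. At the TSS 15286419 the strongest pooled signal was 82.0 (rank 7251), and at 15288012 it was 101 (rank 5396). At 15290944 it was 54.3 (rank 13082), at a summit 228 bp from this TSS and 83 bp from that of CG45218. That summit was matched in replicate 2 but not in replicate 1. The summit nearest to the Tm2 promoter, 43 bp upstream of its first TSS, had a signal of 39.3 and rank 21038 in the pooled list. The strongest Tm2 promoter summit had rank 21310 in replicate 1 and rank 26784 in replicate 2, and it was the weakest of the 8 genes with a pooled promoter summit.

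The third IDR summit in the Tm1 window was the strongest of the 7 and lay 2854 bp upstream of the first Tm1 TSS. It was 125 bp upstream of Cp190, which encodes a zinc finger protein of chromatin insulators. The peak, chr3R:15275201-15275544, had a signal of 554 and rank 273 in the pooled list, a signal of 297 and rank 196 in replicate 1 and a signal of 255 and rank 394 in replicate 2, where the peaks shared less than 50% of their length but had summits within 100 bp. In replicate 1 the summit was 107 bp upstream of Cp190, and in replicate 2 it was nearest to CG4338, 135 bp upstream of its TSS. The site thus lay between the divergent promoters of Cp190 and CG4338, both far nearer than any Tm1 TSS.

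**Figure D1:**
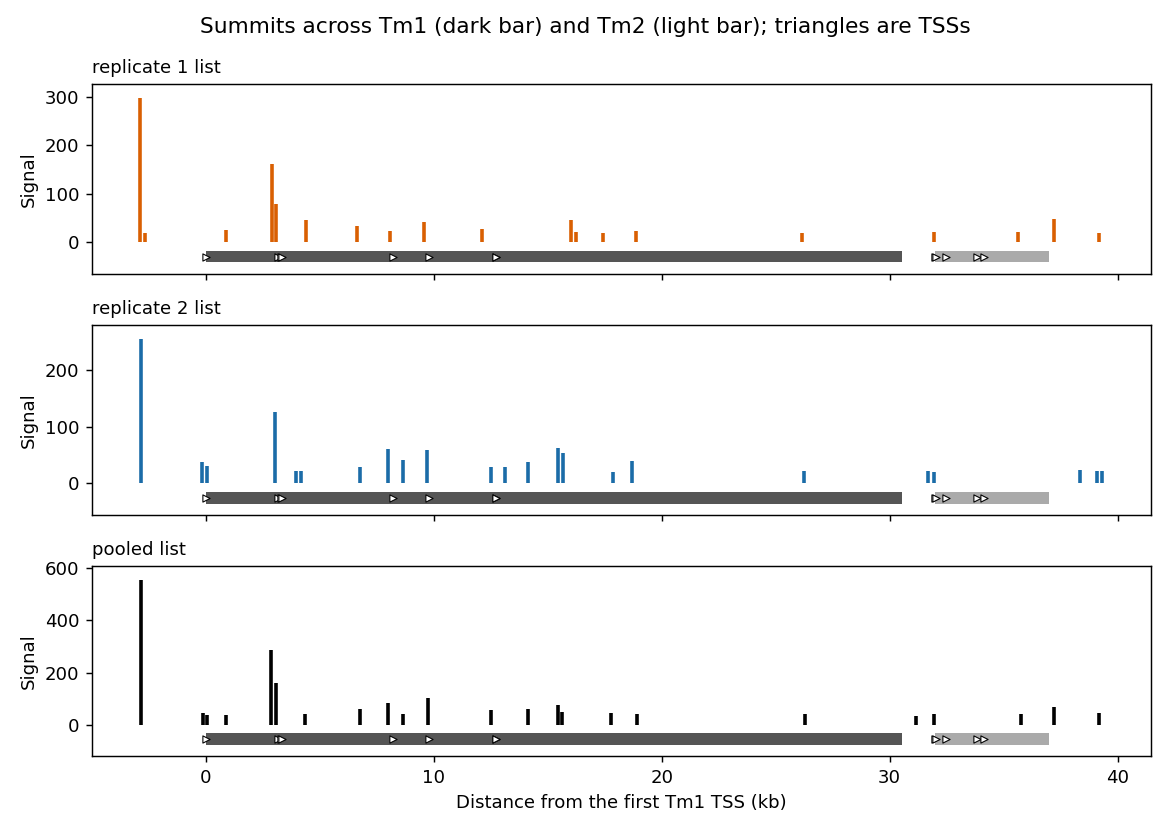
Summits across Tm1 (dark bar) and Tm2 (light bar) in the replicate 1, replicate 2 and pooled lists, with distance from the first Tm1 TSS in kb on the x axis and the authors' signal in each list on the y axis (the scale differs between panels). Triangles are TSSs. The tallest line in each panel is the site between Cp190 and CG4338, 2872 bp upstream in replicate 1, 2833 bp in replicate 2 and 2854 bp in the pooled list, and the next is at the internal Tm1 TSSs, while Tm2 has low lines only.

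The troponin genes had no IDR summit in their windows, and their promoter summits in the relaxed lists had low ranks. up encodes troponin T (FBgn0004169, chrX:13593474-13602578, minus strand, 18 transcripts, 6 TSSs). Its strongest promoter summit had a signal of 43.8 and rank 17963 in the pooled list and lay 4 bp inside the TSS of 1 transcript. In replicate 2 a summit 14 bp inside that TSS had a signal of 46.3 and rank 7979. In replicate 1 the strongest promoter summit had a signal of 24.0 and rank 16385 and lay elsewhere, 300 bp upstream of the first TSS. The replicates thus put the strongest up promoter summit at different start sites. Over the whole up window, the strongest summit of replicate 1 lay in an intron, 827 bp from the nearest TSS. It had a signal of 33.7 and rank 9217. The strongest pooled summit there, with a signal of 54.0 and rank 13199, lay in the downstream flank.

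wupA encodes troponin I, the subunit that blocks contraction in the absence of calcium (FBgn0283471, chrX:18105568-18116922, minus strand, 13 transcripts, 3 TSSs). It had no promoter summit in the pooled list or in replicate 1, and in replicate 2 it had 2. One had a signal of 21.5 and rank 25901, and the other, with a signal of 19.7 and rank 29288, lay 44 bp upstream of the TSS of 9 of the 13 transcripts. The strongest pooled summit in its window, with a signal of 107 and rank 5008, lay in the downstream flank and 9 bp from the TSS of Mvb12, which encodes a subunit of the ESCRT-I sorting complex. In replicate 2 this Mvb12 summit had rank 3859. The nearest IDR summits of up and wupA were 14272 bp away at Tango2 and 12586 bp away at RhoGAP16F.

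The 2 muscle actin genes also differed. Act87E encodes an actin of larval and adult muscles (FBgn0000046, chr3R:13425983-13428375, plus strand, 3 transcripts, 2 TSSs). Its promoter peak, chr3R:13425464-13425887, had its summit 307 bp upstream of the first TSS and a signal of 169 and rank 2529 in the pooled list. The same site had a signal of 80.2 and rank 2419 in replicate 1 and a signal of 74.1 and rank 3870 in replicate 2. A second IDR peak, chr3R:13428307-13428730, lay on the other side of the gene, with its summit 144 bp beyond the gene's end. It had a signal of 160 and rank 2753 in the pooled list, a signal of 77.2 and rank 2535 in replicate 1 and a signal of 81.3 and rank 3341 in replicate 2. The nearest TSS to this summit was that of Act87E, 2072 bp away. Act87E was thus flanked by a pair of sites of nearly the same rank, while its body held 0 pooled summits. Another IDR summit, of signal 278 and nearest to yrt, lay 5317 bp from Act87E and so just outside its window.

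Act57B encodes an actin of larval muscles (FBgn0000044, chr2R:20944021-20946431, plus strand) from 1 TSS. Its promoter summit, 25 bp inside the TSS, had a signal of 50.4 and rank 14632 in the pooled list. The rank there was 9583 in replicate 1 and 22935 in replicate 2. The strongest pooled summits in its window were a pair 4150 and 3940 bp upstream of the TSS, with signals of 96.0 and 86.3, matched in both replicates. No IDR summit lay closer to Act57B than 50904 bp. Actin genes are related in sequence. Of the 36-base words of the gene 6.15% were repeated elsewhere in the genome for Act87E and 2.95% for Act57B, and none in the 7 IDR windows.

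**Figure D2:**
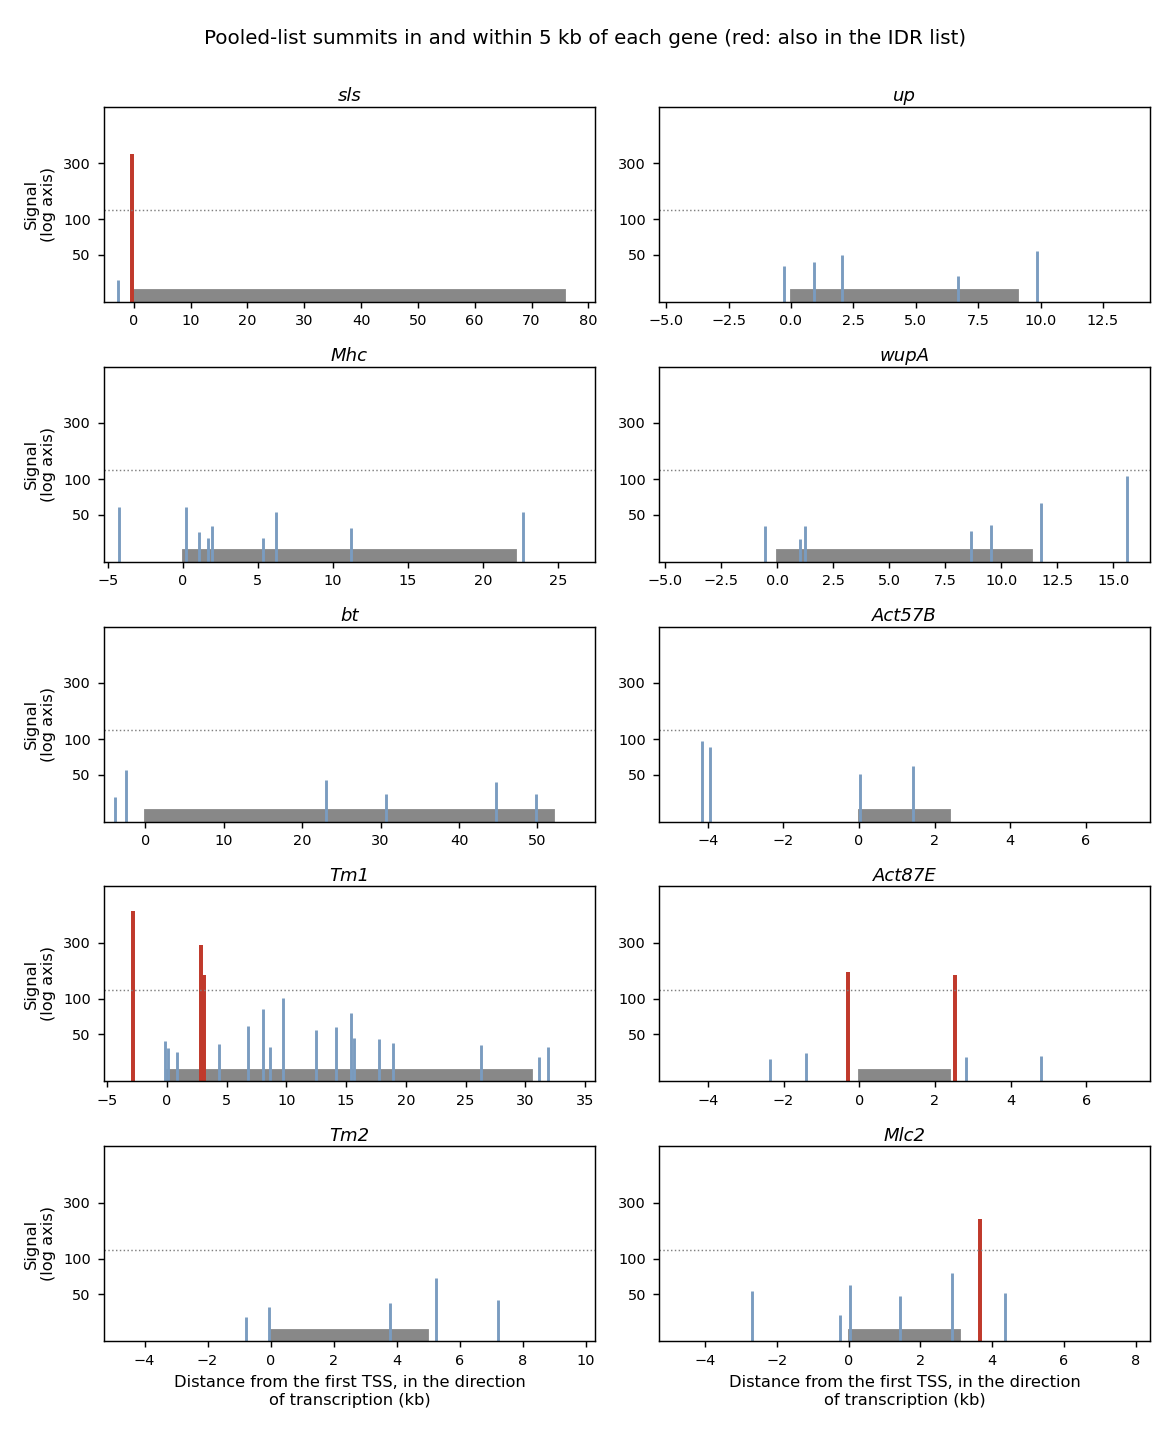
Pooled-list summits in each sarcomere gene (grey bar) and 5 kb to either side, with distance from the first TSS in kb on the x axis and the authors' signal on the y axis (log axis). Red lines are summits that are also in the IDR list, blue lines are weaker pooled summits, and the dotted line is the lowest IDR signal, 119. The Tm1 panel holds 3 red lines, Act87E 2, and sls and Mlc2 1 each.

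In the relaxed lists more of the sarcomere genes had promoter summits, at low ranks. Pooled promoter summits were found at 8 of 10 genes (exact interval 44.4 to 97.5%), against 45.3% of all protein-coding genes. The same 8 genes had one in replicate 1, against 43.8% of all protein-coding genes, and 9 had one in replicate 2, against 47.3%, wupA being the one added. Both replicates had one at 8 of 10 genes (interval 44.4 to 97.5%), against 35.2% of all protein-coding genes. These counts concern genes and not start sites, and 6 of the 10 genes have 3 or more TSSs, which gives them more room to be hit. Counted by start site, a pooled summit lay within 500 bp of 23 of the 35 TSSs of the sarcomere genes (65.7%) and of 45.1% of 19607 TSSs of all protein-coding genes. In the IDR list it was 5 of 35 (14.3%) and 12.8%. Pooled signals at the promoters with a summit had a median of 59.2 over the 8 sarcomere genes and 77.8 over the 6317 protein-coding genes. Of the 8 sarcomere genes 5 had pooled signals below the median of all genes. The pooled interval over genes holds the value for all genes near its lower end, so no difference can be read in that list. The intervals of replicate 1 (44.4 to 97.5%), replicate 2 (55.5 to 99.7%) and both replicates lay above the values for all genes. These intervals do not allow for the number of TSSs per gene. No test was made, since the genes were chosen with results known.

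**Figure D3:**
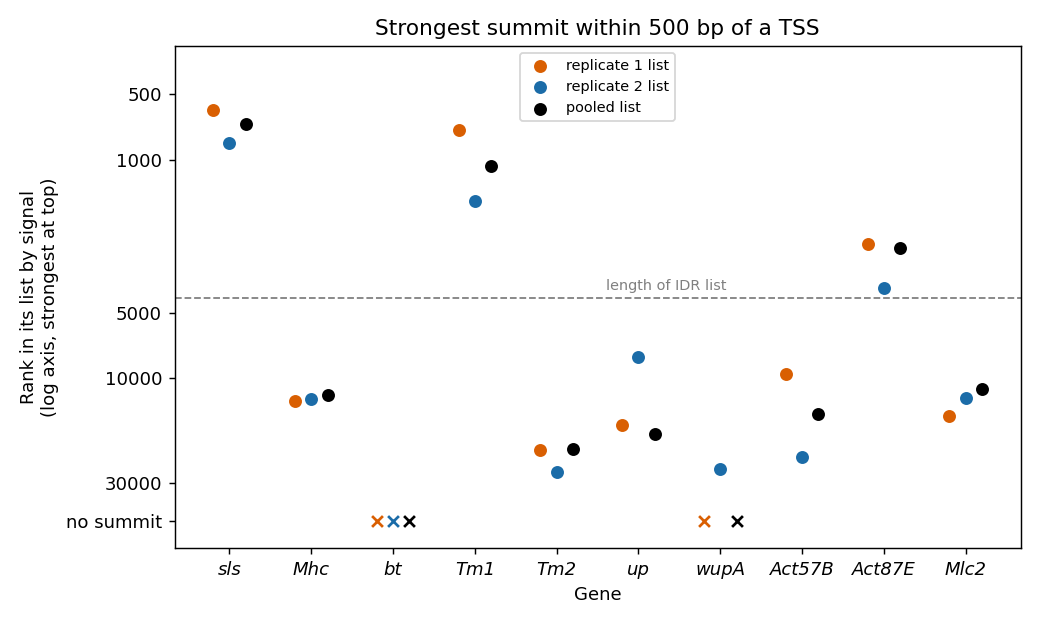
Rank of the strongest promoter summit of each sarcomere gene in the replicate 1, replicate 2 and pooled lists (log axis, strongest at the top; crosses mark genes with no promoter summit in that list). The dashed line is the length of the IDR list, 4278 peaks. The points of sls, Tm1 and Act87E lie above the line in all 3 lists, every point of the other genes lies below it, and bt has crosses only.

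The split into 3 marked promoters and 7 others was the same in each replicate taken alone. The IDR list was made from these same 2 replicates, so this match is not independent support. Among the 4278 strongest peaks of replicate 1 the genes with a promoter summit were sls, Tm1 and Act87E, 3 of 10 against 13.5% of all protein-coding genes, and they were the same 3 in replicate 2, against 14.5%. By the wider window 4 genes were marked in replicate 1, against 40.9%, and 5 in replicate 2, against 41.2%, where wupA was added through the Mvb12 site. Of the 69 pooled peaks in the windows of the sarcomere genes 29 (42.0%) had a peak in both replicates, with at least 50% of each peak shared, against 50.2% of all 30000 pooled peaks. A further 17 had one in replicate 1 only and 21 in replicate 2 only. Below the IDR list the share was 24 of 62 (38.7%), against 44.6% of all pooled peaks there.

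All 10 genes had a pooled summit in the gene or within 5 kb, as had 83.7% of all protein-coding genes, and 8 of 10 had one inside the gene, against 38.3%. The 4 genes over 20 kb, namely sls, Mhc, bt and Tm1, set most of the covered length. Per 100 kb, the windows of the sarcomere genes held 2.29 IDR summits (7 in 306 kb), against 3.57 for the windows of all protein-coding genes, and 22.6 pooled summits (69 in all), against 24.3. Inside the genes the IDR density was 0.934 per 100 kb, against 3.02. The relaxed densities were 26.5 against 24.3 in replicate 1 and 22.9 against 24.5 in replicate 2. The windows of sls, Mhc, bt and Tm1 held 1.81 IDR and 16.8 pooled summits per 100 kb. Those of Act57B, Act87E and Mlc2 held 7.91 IDR and 44.8 pooled summits per 100 kb, on 3 IDR summits in all. The windows of Tm2, up and wupA each held 0 IDR summits. Inside the genes the order was the other way for IDR summits only. There sls, Mhc, bt and Tm1 held 1.11 IDR summits per 100 kb, and Act57B, Act87E and Mlc2 held 0. For pooled summits the order stayed, with 14.9 per 100 kb in the long genes and 63.1 in the other 3. The IDR densities rest on 7 summits, and no density was tested.

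Coding sequence held a larger share of the relaxed-list summits in the windows of the sarcomere genes than in those of all genes. Introns held a smaller one. Set against any protein-coding gene, 6 of the 7 IDR summits were promoter summits (85.7%), against 41.3% of the 3975 IDR summits in the windows of all protein-coding genes, and 0 of 7 lay in an intron away from a TSS, against 44.8%. In the pooled list 26 of 69 were promoter summits (37.7%), against 28.2%. Introns held 17 (24.6%), against 48.2%, and coding sequence held 11 (15.9%), against 4.47%. Coding sequence held 18 of 81 summits in replicate 1 (22.2%), against 6.03%, and 9 of 70 in replicate 2 (12.9%), against 5.58%. In the IDR list coding sequence held 0 of 7, against 12 of 3975. These counts include summits in the coding sequence of neighbouring genes, so they do not describe the coding exons of the sarcomere genes alone. What part long coding exons or neighbours have in these shares was not tested. The gene nearest by TSS was not always the sarcomere gene. In the pooled list it was another gene for 22 of 69 summits, in replicate 1 for 31 of 81 and in replicate 2 for 19 of 70.

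Other genes of muscle structure were counted in the same way for comparison. Among 18 further thin filament and Z-disc genes, 6 had an IDR promoter summit (33.3%, exact interval 13.3 to 59.0%), against 14.0% of all protein-coding genes. Without replicate 2 this count was 3, and with a TSS window of 250 bp it was also 3. The strongest was at Msp300, the fly nesprin, with a signal of 376 at 381 bp upstream of a TSS. CAP, a vinculin-binding adaptor, had 318, tmod (tropomodulin, which caps the filament end) had 293, and Lasp, an actin-binding protein of the nebulin kind, had 147. Actn (alpha-actinin, 132) and Zasp52 (131), both Z-disc proteins, were the other 2. Away from promoters CAP had a signal of 434 in its 5' UTR and tmod 335 in an intron. The muscle actin genes Act79B and Act88F had no promoter summit in any list. Among 7 further thick filament and M-line genes 0 had an IDR promoter summit (interval up to 41.0%), and the paramyosin gene Prm had an intron summit of signal 147. Of 3 calcium handling genes 0 had one (interval up to 70.8%).

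The cytoplasmic relatives of these proteins had an IDR promoter summit at 3 of 5 genes (interval 14.7 to 94.7%), against 14.0% of all protein-coding genes. The interval starts just above that value, and without replicate 2 the count was 2. The 3 were sqh (non-muscle myosin regulatory light chain, signal 327), the actin gene Act5C (190) and zip (non-muscle myosin heavy chain, 124). The other 2, the actin gene Act42A and the light chain gene Mlc-c, had 84.6 and 49.8 at their promoters in the pooled list. Some muscle actin and myosin genes had a promoter summit in that list. Their signals were 169 at Act87E, 60.4 at Mlc2, 58.0 at Mhc and 50.4 at Act57B. Of these, Act87E was close to Act5C and the others were near Mlc-c. The muscle actin genes Act79B and Act88F and the light chain gene Mlc1 had no pooled promoter summit. Among 13 muscle transcription factor genes 2 had an IDR promoter summit (15.4%, interval 1.92 to 45.4%), against 14.0% of all protein-coding genes. They were tin (tinman, of the heart and dorsal mesoderm, signal 442) and Mef2 (139). Without replicate 2 this count was 1, since the Mef2 promoter summit had rank 4760 in replicate 1. Mef2 also had an intron summit of signal 349, and nau had one of 202. The intervals of the lists overlap, and the differences between their shares were not tested.

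**Figure D4:**
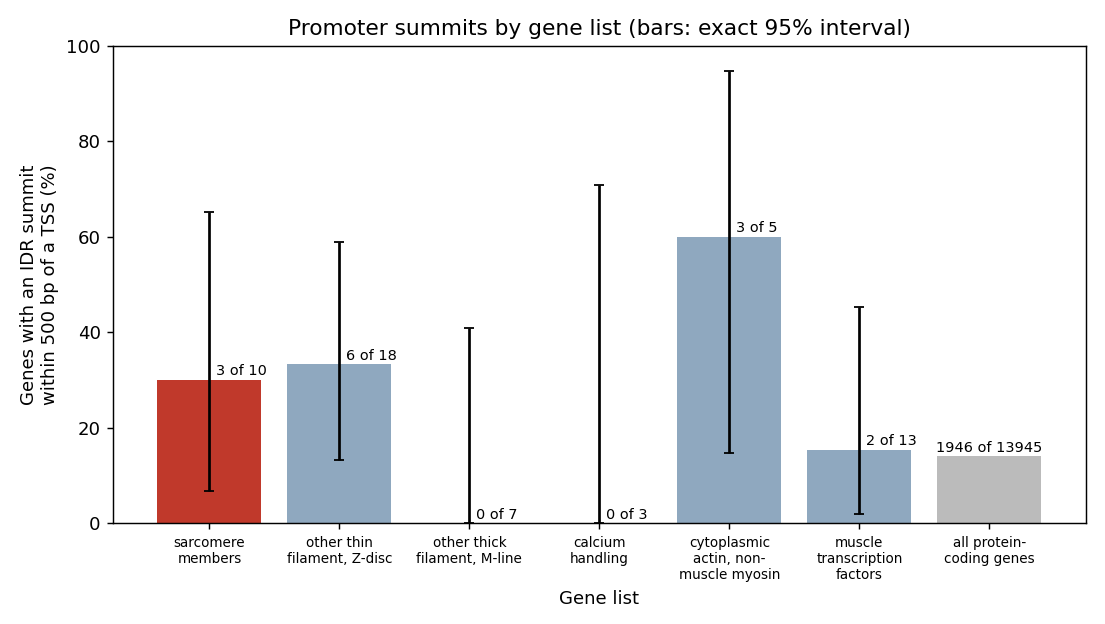
Share of genes with an IDR promoter summit (%) in the sarcomere genes (red), in 5 comparison lists (blue) and in all protein-coding genes (grey), with exact binomial 95% intervals for the lists. The share is 3 of 10 for the sarcomere genes and 1946 of 13945 for all protein-coding genes, and the list intervals overlap.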

How the data were processed

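ChIP-seq peak lists of 2 biological replicates of CG2875-GFP embryos were used. Per the deposited file records, peaks were called on the replicate alignments with a control alignment, and from these lists the IDR list was made. For the peak caller, the aligner and the threshold of the IDR step, names and versions were not given in the sources used here. Per the labels, chromatin was sonicated to 200 to 800 bp. Each peak carries a signal value deposited by the authors, and peaks were ranked by it within a list. Lists on the older build were not used.

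Summits were placed on dm6 with the Ensembl release 115 annotation. Coordinates are 1-based. A summit's class was taken in the order promoter (within 500 bp of a TSS), then UTR at the 5' end, coding sequence, UTR at the 3' end, any other exon, intron, outside. A replicate match needed at least 50% reciprocal overlap unless a summit distance is given. The classifier was tested on simulated positions. No test was made, so no p-value is given: shares carry exact binomial (Clopper-Pearson) 95% intervals, which cover counting error only, beside the share over all protein-coding genes.

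The genes, comparison lists and motifs were chosen with earlier results of these data known. Named genes were the 10 sarcomere genes, the owners of a TSS nearer to one of their peaks, and in each comparison list up to 4 genes with the strongest IDR promoter summit and up to 2 with the strongest IDR summit in the gene. Actn, Zasp52, Act79B, Act88F, Mlc1 and the genes at the nearest IDR summit outside a window were named after their values were seen. Alternatives were each replicate alone, the stronger 50% of IDR peaks, and other TSS windows, flanks and overlap rules. Figures were drawn with matplotlib 3.10.9, and intervals were computed with scipy 1.17.1 under Python 3.11.15, with pandas 2.3.3 for tables and numpy 2.4.6.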

Additional observations from a re-analysis of the deposited data

How the results depend on the processing

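The count of 3 sarcomere genes with an IDR promoter summit was 3 in each replicate's 4278 strongest peaks and with a TSS window of 1000 bp, and 2 with a window of 250 bp or with the stronger 50% of the IDR peaks. Of 35 alternatives for the counts that answer a comparison, 26 stayed within 1.5 times the reported count and 9 did not. With no flank, the genes with an IDR summit numbered 1 in place of 4, and the summits 2 in place of 7. With the stronger 50% of the IDR peaks the summits numbered 4, the promoter summits 2 in place of 4, the summits in an intron 1 in place of 2, and the comparison genes with a promoter summit 6 in place of 11. A TSS window of 250 bp left 2 promoter summits. Each replicate alone gave 1 to 2 intron summits (1 without replicate 1) and 6 to 11 comparison genes (6 without replicate 2, where the thin filament and Z-disc genes numbered 3 and the muscle transcription factors 1). The cause was not tested. IDR peaks matched in both replicates numbered 5 of 7 at 50% overlap, 7 with any overlap and 6 with summits within 100 bp. Counting only summits whose nearest TSS is the sarcomere gene's own, chosen after seeing the data, gave 3 genes and 5 summits. No paired analysis was possible because there is 1 group and no result comes from a test. With 10 genes, 2 libraries and no read totals, small differences in these shares could not be detected.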
